A study of Mus musculus with 40 samples.

Results

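The mitochondrially encoded transcripts are the 37 genes whose GENCODE M21 symbol begins with mt-, of 55536 genes in each count table. They were chosen by name alone, all lie on the mitochondrial chromosome, and they comprise 2 rRNA, 13 protein-coding and 22 tRNA genes. RNA-seq was performed on poly(A)-selected RNA from mouse embryonic stem cells (mESCs), a Cas9-expressing line with wild-type Atm grown in LIF medium on gelatin. WT cells were compared with knockout (KO) cells edited in Ccnc, which encodes Cyclin C, or in Cdk8, which encodes its kinase partner in the Mediator kinase module. Every replicate or clone was sampled after 4 h in DMSO, the vehicle, and after 4 h in 900 nM of the ATR kinase inhibitor AZD6738 (ATRi). WT cells gave 2 replicates, and each knockout gave 3 clones, each grown from a single edited cell: D1, G2 and H5 for Ccnc KO and B9, H4 and C8 for Cdk8 KO. The 4 WT libraries were sequenced once in a multiplex with the Ccnc KO libraries and again in a multiplex with the Cdk8 KO libraries, so the comparisons of both knockouts share their controls. Each of the 20 libraries is the sum of 2 lanes and held between 30899823 and 67274049 counts.

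WT replicate 2 under ATRi stood apart from the other libraries in both multiplexes, was left out of every fit unless stated, and is described on its own further on. p-values measure the spread between libraries. Unless clone is entered as a block, the DMSO and ATRi libraries of a clone or replicate count as independent. Ccnc itself fell by 2.93 on the log2 scale in Ccnc KO cells (SE 0.13, adjusted p = 1.14e-08 in edgeR's quasi-likelihood test). Cdk8 fell by 0.35 in Cdk8 KO cells (SE 0.06, adjusted p = 0.0112 in edgeR, and 0.0488 in limma with clone as a block). It was at 52.3 to 64.6 CPM there and at 71.2 to 78.6 CPM in WT (57.7 CPM in WT replicate 2 under ATRi). RNA levels thus do not show the loss of Cdk8, and the cells are called Cdk8 KO by their labels. For its knockout mESCs the study reports immunoblots of CDK8 protein, and genotypes for all knockout clones used. CPM here are counts scaled to the TMM-adjusted total of the genes that passed the filter on low counts.

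Markers of cell state moved with genotype. Without WT replicate 2 under ATRi, the summed level of 8 pluripotency genes was 4304 to 4682 CPM in WT and 3760 to 4322 CPM in Ccnc KO libraries of the Ccnc multiplex, and 4208 to 4591 CPM in WT and 3203 to 4169 CPM in Cdk8 KO libraries of the other. Klf4, Zfp42, Tdgf1 and Esrrb fell in Ccnc KO, and Sox2 and Tdgf1 in Cdk8 KO, the last 2 lost with clone as a block (adjusted p = 0.0604 and 0.0852). The sum of 8 primitive endoderm genes was 87.6 to 101 CPM in WT, 129 to 190 CPM in Ccnc KO and 166 to 310 CPM in Cdk8 KO libraries. 6 of these 8 genes rose in Ccnc KO and all 8 in Cdk8 KO, where Foxa2, Pdgfra and Gata6 were lost with the block (adjusted p = 0.0596, 0.140 and 0.0717). The sum of 8 fibroblast genes was 6.63 to 8.73 CPM in WT, 9.10 to 14.9 CPM in Ccnc KO and 10.02 to 26.8 CPM in Cdk8 KO libraries, and 0 of the 5 and 7 tested were called. Over all genes tested, 12.3% were called in Ccnc KO and 4.31% in Cdk8 KO. The part of these cell states in the mitochondrial values was not tested.

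The mitochondrial genome is transcribed from both strands into long precursors that are cut apart, largely at the tRNAs that punctuate them. The released mRNAs encode subunits of the respiratory chain (mt-Nd genes for complex I, mt-Cytb for complex III, mt-Co genes for complex IV) and of ATP synthase (mt-Atp6 and mt-Atp8). Most mitochondrial mRNAs receive a poly(A) tail, which for some completes an unfinished stop codon, whereas mitochondrial rRNAs carry only short tails and the tRNAs end in CCA. In human cells the mRNA of ND6, the only protein gene on its strand, is known to lack a stable tail.

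The ends of 5 messages, read from the GENCODE M21 transcripts (GRCm38) as the last 30 bases, are shown because the tail is what the selection acts on. Capitals mark the bases after the last full codon, or the last codon where the length is a multiple of 3.
mt-Co1: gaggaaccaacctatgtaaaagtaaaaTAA
mt-Cytb: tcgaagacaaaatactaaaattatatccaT
mt-Nd4: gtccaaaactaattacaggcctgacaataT
mt-Co3: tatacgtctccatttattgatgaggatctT
mt-Nd6: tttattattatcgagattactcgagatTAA

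mt-Cytb, mt-Nd4 and mt-Co3 ended in a lone T of an incomplete stop codon, and mt-Co1 and mt-Nd6 in a full TAA. mt-Nd6 lies on the minus strand at chrM:13552-14070, and its 3′ end overlaps the 3′ end of mt-Nd5 (chrM:11742-13565) on the plus strand. Counting was strand-specific. The minus strand holds 9 of the 37 genes, 8 of them tRNAs, and took 0.0498% to 0.209% of mitochondrial counts.

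Without WT replicate 2 under ATRi, the 37 genes took 1.10% to 2.16% of a library's counts, with a median of 1.39%. Protein-coding genes made up 94.2% to 96.8% of these counts, rRNA genes 3.10% to 5.72% and tRNA genes 0.0615% to 0.125%. In these bulk samples, more mitochondrial RNA in every cell and more cells rich in it cannot be told apart. These are shares of poly(A)-selected RNA, and they describe the libraries rather than the mitochondrial RNA of the cell.

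Among the messages, 6 genes of the plus strand carried nearly all counts. Per length, over all 20 libraries, the median levels were 2873 CPM per kb for mt-Co1 (cytochrome oxidase), 2838 for mt-Nd1, 2720 for mt-Cytb (cytochrome b), 1009 for mt-Nd2, 637 for mt-Nd4 and 558 for mt-Nd5, the mt-Nd genes being complex I subunits. The levels of mt-Co1, mt-Nd1 and mt-Cytb overlapped across libraries, and so did those of mt-Nd4 and mt-Nd5. mt-Rnr1, the small-subunit rRNA, had a median of 303 CPM per kb and mt-Rnr2, the large-subunit rRNA, 226 CPM per kb. mt-Nd6 had a median of 26.4 CPM per kb.

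The remaining 6 messages were almost empty. mt-Co2 held 31 to 428 counts, mt-Atp6 39 to 542, mt-Co3 41 to 335, mt-Nd3 2 to 27, mt-Nd4l 0 to 28 and mt-Atp8 0 to 20. For 5 of these 6, all but mt-Atp8, a pseudogene on chromosome 1 matched the gene with at most 1 mismatch over its aligned length. The copies Gm28661 (of mt-Co2), Gm10925 (of mt-Atp6), Gm28437 (of mt-Co3) and Gm10222 (of mt-Nd4l) were identical over 681, 678, 783 and 294 bases, and Gm28438 differed from mt-Nd3 by 1 base of 345. All lie on the minus strand between chr1:24611535 and chr1:24616197, in mitochondrial order, and their spacing equals that of the mitochondrial genes to within 1 base. mt-Atp8 lies between mt-Co2 and mt-Atp6 and has no annotated match.

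The copies that carry this finding are shown beside the mitochondrial gene, with capitals at the bases that differ, counted from 1 at the 5′ end of the mitochondrial gene. The first 60 bases of mt-Atp6 and of its copy are the same.
mt-Atp6: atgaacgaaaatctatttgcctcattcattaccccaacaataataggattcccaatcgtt
Gm10925: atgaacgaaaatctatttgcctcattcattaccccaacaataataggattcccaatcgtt

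The first 60 bases of mt-Nd3 and of its copy hold the one substitution between them, T3C.
mt-Nd3: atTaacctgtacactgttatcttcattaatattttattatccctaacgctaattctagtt
Gm28438: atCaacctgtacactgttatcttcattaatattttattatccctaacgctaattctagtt

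mt-Co1 held 128961 to 386688 counts. Its shorter chromosome 1 copy Gm29216 held 5424 to 23788, and its longer chromosome 2 copy Gm13340 held 5901 to 17759. Gm29216 begins at base 1063 and differs from mt-Co1 by A1066T over 483 aligned bases. The longer copy Gm13340 on chromosome 2 covers the gene at 97.6% identity with 37 mismatches, of which T1072C falls in the bases shown.
mt-Co1: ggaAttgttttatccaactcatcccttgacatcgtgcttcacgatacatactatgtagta
Gm29216: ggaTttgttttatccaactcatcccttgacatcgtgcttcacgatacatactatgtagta
Gm13340: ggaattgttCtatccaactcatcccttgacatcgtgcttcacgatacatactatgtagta

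For the 5 nearly empty messages with a chromosome 1 copy, the copies held most of the counts of each pair. Gm28661 held 7735 to 36218 counts, Gm10925 11318 to 54118, Gm28437 9892 to 31777, Gm28438 863 to 2171 and Gm10222 400 to 1867. The mitochondrial member took a median of 1.24% of the pair's counts for mt-Co2, 0.871% for mt-Atp6, 1.03% for mt-Co3, 0.938% for mt-Nd3 and 1.17% for mt-Nd4l. Reads of such pairs cannot be assigned by their sequence, so values of these 5 genes are uncertain, as are those of mt-Atp8 at its low counts. Part of mt-Nd4 is in the same position, since Gm28439 is identical to it over 876 of its 1378 bases and held 2395 to 11349 counts, beside 24140 to 76145 on mt-Nd4. mt-Co1 (the copies above), mt-Nd2 (Gm13339, 96.7% identity over 510 bases) and mt-Nd5 (Gm4076, 95.2% over 954 bases) also match in part. With the counts of the copies added to their gene, mt-Nd4 had log2 differences of 0.06 and -0.05 for genotype and of -0.15 and 0.27 for ATRi in the Ccnc and Cdk8 multiplexes, none of them called. All 11 nuclear genes that matched a mitochondrial gene at 95% identity or more over 100 bases or more took 0.119% to 0.233% of counts without WT replicate 2 under ATRi.

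**Figure D1:**
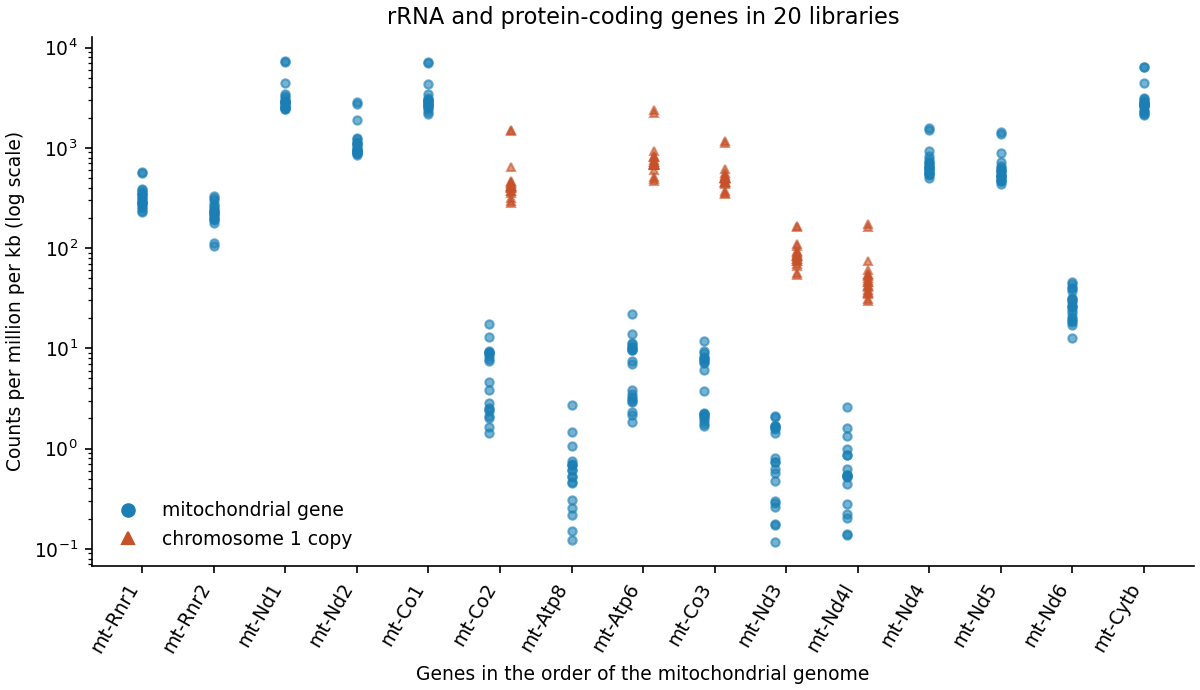
Level of the 2 rRNA and 13 protein-coding genes in each of the 20 libraries (circles, CPM per kb on a log axis, libraries at 0 not drawn), in genome order, with the chromosome 1 copies (triangles) per length of their mitochondrial gene. The 6 abundant messages lie at 438 CPM per kb or more, the 6 nearly empty ones at 22.1 or less, and the copies sit above the 5 genes they match.

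How the counts of mt-Co2, mt-Atp6 and mt-Co3 fell also depended on the lane. In the Ccnc multiplex, their summed share of counts was 2.37 to 3.69 times as high in the second lane as in the first lane of the same library, in 10 of 10 libraries. In the Cdk8 multiplex the same ratio was 0.935 to 1.33. For the 6 abundant messages it was 0.997 to 1.00 and 0.994 to 1.01, for both rRNAs 0.972 to 1.03 and 0.982 to 1.02, and for mt-Nd6 0.833 to 1.09 and 0.871 to 1.20. The same WT libraries gave 2.17 to 5.32 times as high CPM for these 3 genes in the Ccnc multiplex as in the Cdk8 multiplex, against 0.899 to 1.03 for the 6 messages, both rRNAs and mt-Nd6. mt-Co2 in WT replicate 1 in DMSO, for instance, held 292 counts in one multiplex and 128 in the other.

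**Figure D2:**
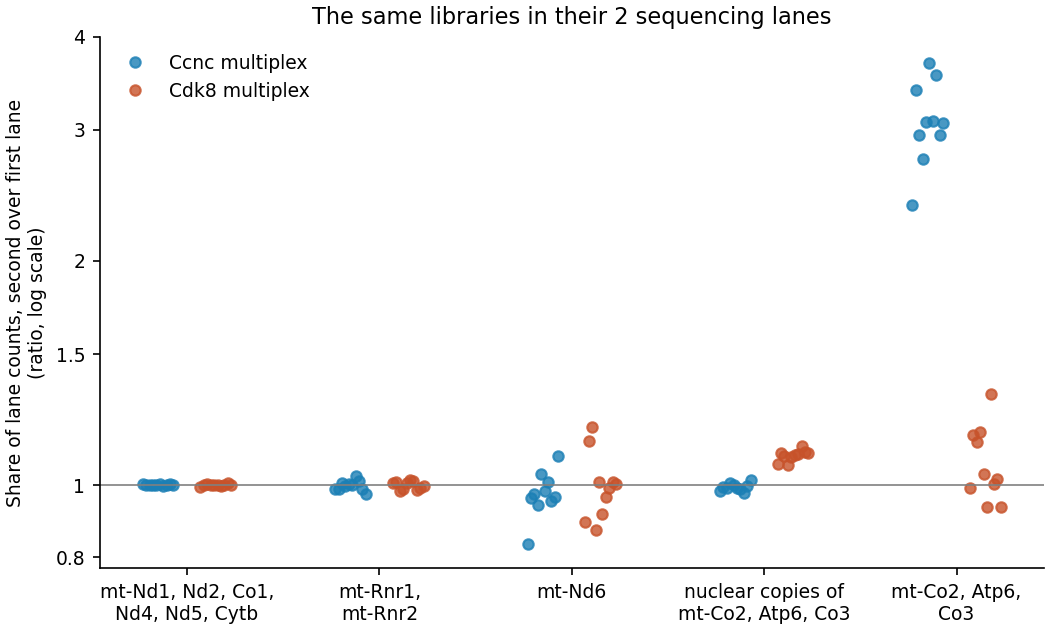
Ratio of the second to the first lane's share of counts for groups of genes (log axis), with 1 point for each of the 10 libraries of a multiplex. Ratios lie near 1 except for mt-Co2, mt-Atp6 and mt-Co3 in the Ccnc multiplex, where all 10 lie between 2.37 and 3.69.

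The tRNA genes were read sparsely, with 380 to 1035 counts over all 22 in a library without WT replicate 2 under ATRi. mt-Td (tRNA for aspartate), mt-Tt (threonine) and mt-Tl1 (leucine) took 69.4% to 87.1% of tRNA counts over all libraries. Their sequences, and that of mt-Tp (proline), are shown whole because values of these genes are given below.
mt-Td: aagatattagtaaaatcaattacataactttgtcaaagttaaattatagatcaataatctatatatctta
mt-Tt: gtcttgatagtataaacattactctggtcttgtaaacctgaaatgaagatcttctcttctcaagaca
mt-Tl1: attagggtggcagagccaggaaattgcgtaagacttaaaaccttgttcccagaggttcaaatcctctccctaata
mt-Tp: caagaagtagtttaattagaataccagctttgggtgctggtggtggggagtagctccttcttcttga

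mt-Td (chrM:6942-7011) precedes mt-Co2, mt-Tl1 (chrM:2676-2750) separates mt-Rnr2 from mt-Nd1, and mt-Tt (chrM:15289-15355) directly follows mt-Cytb, all on the plus strand. mt-Tp (chrM:15356-15422) lies on the minus strand. The median count was 227.5 for mt-Td, 100.5 for mt-Tt, 83.5 for mt-Tl1 and 34.5 for mt-Tp. mt-Tf, mt-Tk, mt-Ts2, mt-Tg and mt-Tl2 were at 0 in all 20 libraries, which allows up to 3 counts in each, or 0.0446 to 0.0971 CPM of the library total. These limits cover counting error only. mt-Td, and of the genes at 0 mt-Tk and mt-Tg, lie between mt-Co1 and mt-Nd4, the stretch that the chromosome 1 copies follow in order and spacing. The search for copies covered annotated transcripts only. Whether reads of these tRNA genes also match unannotated sequence on chromosome 1 was not tested.

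The genotype comparison asked whether loss of Cyclin C or CDK8 shifts mitochondrial RNA, with treatment as a term. Hardly any member was called. Of the 37 genes, 22 passed the filter on low counts in each multiplex, and 1 of them was called in Ccnc KO and 0 in Cdk8 KO at an adjusted p under 0.05 (Benjamini-Hochberg over all genes tested), against 12.3% of 18577 genes tested for Ccnc KO and 4.31% of 18721 for Cdk8 KO. At an unadjusted p under 0.05 there were 2 members in each, beside 4957 of 18577 and 3995 of 18721 genes tested. DESeq2 called 2 members in Ccnc KO and 0 in Cdk8 KO, beside 14.2% and 9.61% of genes. The median log2 change of the members tested was 0.08 in Ccnc KO and -0.04 in Cdk8 KO, beside 0.00 and 0.01 over all genes tested.

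Protein-coding genes took 1.06% and 1.32% of counts in the WT DMSO libraries of the Ccnc multiplex and 1.39% in WT replicate 1 under ATRi. In Ccnc KO cells they took 2.095% in D1, 1.40% in G2 and 1.28% in H5 in DMSO, and 1.13%, 1.23% and 1.27% under ATRi. D1 in DMSO lay well above these 3 WT libraries and G2 in DMSO barely above them, and the other 4 overlapped with WT. The mean over KO libraries exceeded that over WT libraries by 0.141 percentage points, beside a spread between libraries of a genotype of 0.277 (SD), and by 0.0352 without clone D1. Among DMSO libraries alone the difference was 0.399, and 0.147 without D1.

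In the Cdk8 multiplex, protein-coding genes took 1.10% and 1.38% in WT DMSO libraries and 1.44% in WT replicate 1 under ATRi. Cdk8 KO clones B9, H4 and C8 took 1.39%, 1.20% and 1.18% in DMSO and 1.34%, 1.34% and 1.57% under ATRi. The groups overlapped, and the KO mean was higher by 0.0326 percentage points (SD 0.164) and lower, at -0.0396, without WT replicate 1. For rRNA genes the KO mean was higher by 0.00914 percentage points in Ccnc KO (SD 0.0119) and by 0.0101 in Cdk8 KO (SD 0.0138), less than the spread between libraries in both.

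**Figure D3:**
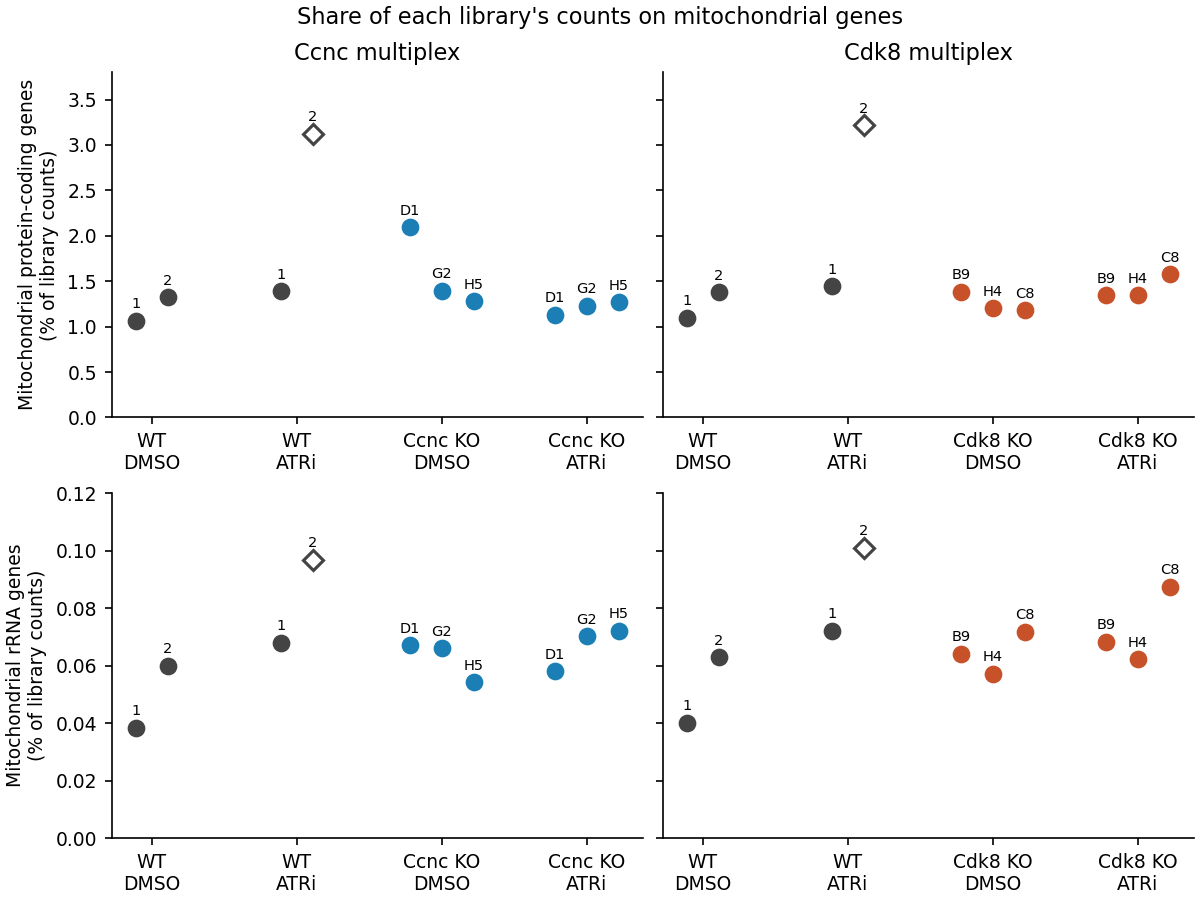
Percent of each library's counts on mitochondrial protein-coding genes (top) and rRNA genes (bottom), by genotype and treatment in each multiplex, with 1 point per library labelled by its WT replicate or clone. The open diamonds are WT replicate 2 under ATRi, at 3.12% and 3.22% for protein-coding genes, above every other library.

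The 1 member called was the tRNA gene mt-Tp. Its level in the Ccnc multiplex was 1.12 and 0.796 CPM in WT DMSO libraries and 1.25 CPM in WT replicate 1 under ATRi, and between 0.356 and 0.927 CPM in the 6 Ccnc KO libraries, so the groups overlapped. It fell by 0.81 on the log2 scale (SE 0.25, adjusted p = 0.0450, edgeR), at 12 to 60 counts in a library of that multiplex. With clone as a block the adjusted p was 0.0590, and 0 members were called against 10.1% of genes. The call was also lost on leaving out either WT replicate or any clone, with an adjusted p of 0.560 without WT replicate 1. In Cdk8 KO, the log2 difference of mt-Tp was -0.04 (SE 0.24, adjusted p = 0.949). Of 7 tested genes of a list for RNA that escapes poly(A) selection, only Gm26917 and Neat1 were called in Ccnc KO, against 12.3% of genes. Gm26917 fell by 0.91 and Neat1 by 0.59 (adjusted p = 0.0161 and 7.45e-05, edgeR). Their part in the mitochondrial values was not tested.

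mt-Rnr2, the rRNA of the large ribosomal subunit, was at 166 and 322 CPM in WT DMSO libraries of the Ccnc multiplex and at 302, 347 and 281 CPM in D1, G2 and H5. It was at 311, 366 and 377 CPM in H4, B9 and C8 in DMSO, beside 177 and 342 CPM in the WT libraries of that run. WT replicate 1 was the lowest in both multiplexes and the other libraries lay close together. The fitted genotype change was 0.25 (SE 0.16, adjusted p = 0.346) in Ccnc KO and 0.29 (SE 0.20, adjusted p = 0.440) in Cdk8 KO, and neither passed. Without WT replicate 1 the difference in Ccnc KO was -0.0512. For the 6 abundant messages, log2 differences ranged from 0.05 for mt-Nd4 to 0.24 for mt-Cytb in Ccnc KO and from -0.11 for mt-Nd2 to 0.05 for mt-Co1 in Cdk8 KO.

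The ATRi comparison asked what 4 h of ATR inhibition does to the members, with genotype as a term. In the Ccnc multiplex 1 of 22 members was called, against 1.11% of 18577 genes. In the Cdk8 multiplex 0 of 22 were called, against 0.0855% of 18721 genes. There 6 members had an unadjusted p under 0.05, beside 2146 of 18721 genes, and DESeq2 called 0 members, beside 2.02% of genes. Among the clones of one knockout alone, 0 of 20 members were called in Ccnc KO, against 0.0894% of 16776 genes, and 0 of 20 in Cdk8 KO, against 0% of 17162 genes. In these 2 tests 8 and 1 members had an unadjusted p under 0.05, beside 2108 of 16776 and 1020 of 17162 genes. DESeq2 called 1 and 0 members, beside 1.19% and 0.338% of genes.

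The member called was mt-Nd6, the complex I subunit encoded on the minus strand. In the Ccnc multiplex it was at 8.81 and 13.8 CPM in WT DMSO libraries and at 10.1, 10.6 and 6.62 CPM in D1, G2 and H5. Under ATRi it was at 20.6 CPM in WT replicate 1 and at 15.7, 11.7 and 13.3 CPM in the clones. Every clone was higher under ATRi than in DMSO, but the groups overlapped because G2 and H5 under ATRi lay below WT replicate 2 in DMSO. mt-Nd6 rose by 0.68 on the log2 scale (SE 0.15, adjusted p = 0.0467, edgeR). With clone as a block it rose by 0.76 (SE 0.14, adjusted p = 0.0186), among 2.43% of genes called. With WT replicate 2 under ATRi included, at 16.5 CPM, the difference was 0.64 (adjusted p = 0.110). The call was lost without WT replicate 1 (adjusted p = 0.225), D1 (0.0682), G2 (0.0863) or H5 (0.127), with log2 differences of 0.59 to 0.83.

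In the Cdk8 multiplex mt-Nd6 was at 12.6, 9.60 and 23.6 CPM in B9, H4 and C8 in DMSO and at 19.3, 13.6 and 20.9 CPM under ATRi. It was higher under ATRi in 2 of 3 clones, and lower in C8. Its log2 difference over the multiplex was 0.44 (SE 0.26, adjusted p = 0.578). Within Ccnc KO clones it was 0.58 (SE 0.17, adjusted p = 0.235) and within Cdk8 KO clones 0.23 (SE 0.33, adjusted p = 0.967).

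Relative to mt-Nd5, the message on the opposite strand beside it, mt-Nd6 moved from 11.0 to 18.0 counts per 1000 mt-Nd5 counts in WT replicate 1 of the Ccnc multiplex, from 6.30 to 18.1 in D1, from 11.4 to 12.4 in G2 and from 7.002 to 13.9 in H5. The corresponding change was from 11.6 to 18.3 in B9, from 11.3 to 13.8 in H4 and from 27.3 to 15.9 in C8. The ratio was thus higher under ATRi in 6 of these 7 pairs, which is a description with no test.

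Of a list of 14 genes for RNA that escapes poly(A) selection, 7 were tested. With ATRi 0 were called in the Cdk8 multiplex, against 0.0855% of genes, and 3 with clone as a block, against 11.3%. In the Ccnc multiplex 1 rose, against 1.11% of genes. This was Gm26917, a lncRNA gene listed for ribosomal RNA carry-over, which rose by 1.16 (SE 0.22, adjusted p = 0.0228 in edgeR). Gm26917 was at 342 and 826 CPM in WT DMSO libraries and at 221, 320 and 244 CPM in D1, G2 and H5, against 948 CPM in WT replicate 1 and 881, 599 and 526 CPM in the clones under ATRi. In Cdk8 KO it went from 289, 594 and 597 CPM in B9, H4 and C8 to 921, 704 and 860 CPM. Summed over the list without Malat1, Neat1 and Lars2, the level ranged from 255 to 924 CPM in DMSO and from 593 to 1027 CPM under ATRi, with Rn7sk and Rmrp at 0 throughout. The part of this in the mt-Nd6 and rRNA values was not tested.

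mt-Rnr2 was at 365 CPM in WT replicate 1 under ATRi in the Ccnc multiplex, more than the 166 CPM in DMSO, and at 309, 431 and 420 CPM in D1, G2 and H5. It was higher in all 3 clones and, in the Cdk8 multiplex, in 2 of 3 clones, at 363, 353 and 517 CPM in B9, H4 and C8. The log2 difference was 0.40 (SE 0.15, adjusted p = 0.198) and 0.34 (SE 0.19, adjusted p = 0.531), and neither passed. Per 1000 counts on the 6 abundant messages, mt-Rnr2 went from 14.5 to 27.2 in D1, from 25.3 to 35.3 in G2 and from 22.6 to 33.3 in H5, but from 26.7 to 26.9 in B9, from 27.0 to 26.6 in H4 and from 32.5 to 32.4 in C8. In the Ccnc multiplex it went from 15.7 to 25.7 in WT replicate 1, but from 24.7 to 14.7 in WT replicate 2. These ratios were chosen after the values were seen and carry no test.

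The 6 abundant messages did not pass the test within the clones of either knockout. In Ccnc KO clones, mt-Co1 was at 6675, 4450 and 4151 CPM in D1, G2 and H5 in DMSO and at 3746, 3934 and 4137 CPM under ATRi. D1 was much lower and H5 nearly level. In Cdk8 KO clones mt-Co1 was at 4513, 3975 and 4105 CPM in B9, H4 and C8 in DMSO and at 4670, 4607 and 5287 CPM under ATRi, higher in 3 of 3. The log2 difference within clones was -0.37 (SE 0.14, adjusted p = 0.330) in Ccnc KO and 0.21 (SE 0.08, adjusted p = 0.805) in Cdk8 KO. Over the 6 abundant messages it ran from -0.51 for mt-Nd2 to -0.32 for mt-Nd1 in Ccnc KO clones and from 0.17 for mt-Nd2 to 0.26 for mt-Nd5 in Cdk8 KO clones, and none of the 6 passed in either. The values in Ccnc KO came largely from D1, with log2 ratios of -1.06 to -0.83 over the 6 messages, whereas G2 lay between -0.26 and 0.02 and H5 between -0.10 and 0.12.

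Since each clone was sampled in both treatments, clone was also entered as a block. In the Cdk8 multiplex 8 of 22 members then rose with ATRi, against 11.3% of 18721 genes called: mt-Rnr1 by 0.31, mt-Rnr2 by 0.44, mt-Nd1 by 0.25, mt-Co1 by 0.27, mt-Nd4 by 0.30, mt-Nd5 by 0.32, mt-Nd6 by 0.52 and mt-Cytb by 0.27, with adjusted p between 0.00271 and 0.0312 in edgeR. Within Cdk8 KO clones, mt-Co1 rose by 0.21 (SE 0.05, adjusted p = 0.0164) and mt-Rnr1 by 0.20 (SE 0.04, adjusted p = 0.00950) with the block, against 6.95% of genes. With WT replicate 2 under ATRi included in the blocked fit over the multiplex, 0 members were called.

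**Figure D4:**
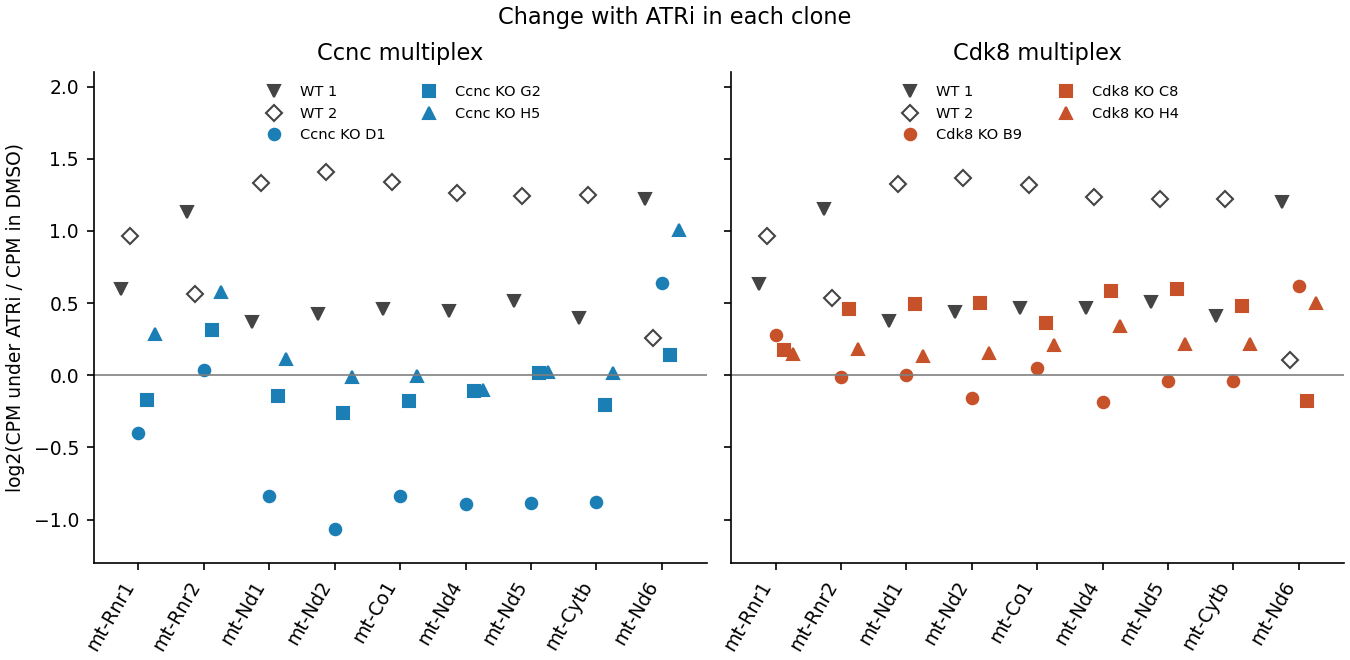
log2 ratio of CPM under ATRi to CPM in DMSO for both rRNAs, the 6 abundant messages and mt-Nd6, with 1 point per WT replicate or clone in each multiplex (open diamonds, WT replicate 2). mt-Nd6 is above 0 in every clone of the Ccnc multiplex, D1 lies at -0.83 for mt-Co1, and WT replicate 2 lies between 1.22 and 1.41 for the 6 messages.

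The interaction asked whether the response to ATRi differs between KO and WT cells. WT replicate 2 had no ATRi library in the fit. Without clone as a block, the WT response was thus WT replicate 1 under ATRi against the DMSO libraries of both WT replicates. With the block it rested on WT replicate 1 alone. 0 of 22 members were called in either multiplex, against 0% of 18577 and of 18721 genes, and DESeq2 called 0 in both. An unadjusted p under 0.05 was found for 6 members with Ccnc KO and 1 with Cdk8 KO. Over all genes tested it was found for 395 of 18577 and 255 of 18721. The 6 abundant messages had interaction terms from -0.79 for mt-Nd2 to -0.59 for mt-Nd1 in the Ccnc multiplex and from -0.11 for mt-Nd2 to -0.02 for mt-Cytb in the Cdk8 multiplex. With clone as a block, mt-Rnr2 was called in the Cdk8 multiplex, at -0.95 (SE 0.12, adjusted p = 0.00702), among 0.0214% of genes. That term sets the 3 clones against the change in WT replicate 1 from 177 to 394 CPM. With the change in WT replicate 2, from 342 to 497 CPM, included it was -0.64 (adjusted p = 0.840).

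WT replicate 2 under ATRi was sequenced in both runs. Its mitochondrial genes took 3.22% and 3.32% of counts. mt-Co1 was at 10741 CPM in the Ccnc multiplex, where the other 9 libraries lay between 3385 and 6675 CPM, and at 11041 CPM in the Cdk8 multiplex, where they lay between 3504 and 5287 CPM. Against the median of the other 9 libraries, the 6 abundant messages were 2.38 to 2.92 times as high in the Ccnc multiplex and 2.33 to 2.91 times in the Cdk8 multiplex.

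The other classes did not follow in step. mt-Rnr1 was 1.92 and 1.95 times the median of the other 9, and mt-Rnr2 1.47 and 1.37 times, the latter within the range of the other 9. mt-Nd6, at 16.5 and 16.1 CPM, lay within the range of the other libraries, so that its ratio to mt-Nd5, 6.53 and 6.15 counts per 1000, was among the lowest. mt-Td was at 1.33 and 1.84 CPM, below the lowest other libraries at 3.44 and 4.23 CPM. mt-Tp, at 0.333 and 0.375 CPM, and mt-Tw (tryptophan), at 0.583 and 0.469 CPM, were also below all others of their multiplex. mt-Tt, by contrast, was at 8.69 and 8.91 CPM, above the highest other libraries at 6.70 and 2.97 CPM. This is 1 library, and its values are given with no test. The nuclear copies took 0.483% and 0.510% of its counts.

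D1 in DMSO had part of these features. Within the Ccnc multiplex, without WT replicate 2 under ATRi, D1 in DMSO had the highest mt-Co1 (6675 CPM) and mt-Tt (6.70 CPM), the lowest mt-Td (3.44 CPM) and mt-Tp (0.356 CPM), and the lowest ratio of mt-Nd6 to mt-Nd5 (6.30 per 1000). Its carry-over list was also the lowest, at 255 CPM, whereas WT replicate 2 under ATRi had 859 and 853 CPM. The part of RNA quality in both libraries was not tested.

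**Figure D5:**
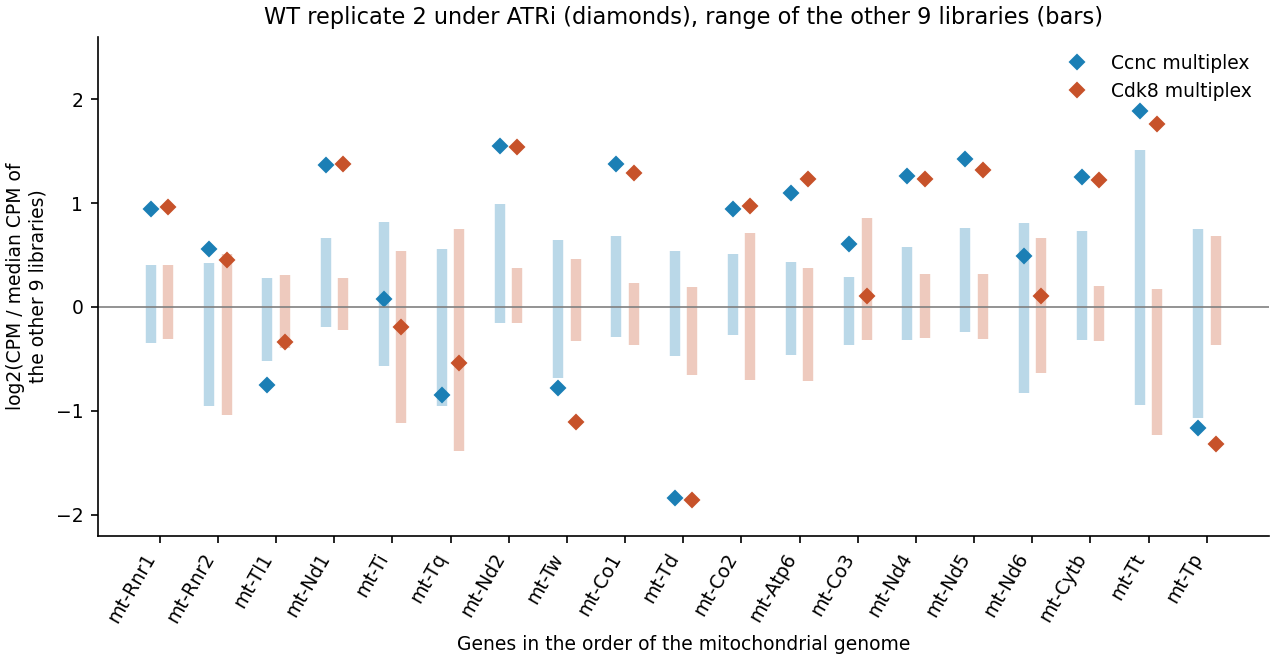
log2 ratio of WT replicate 2 under ATRi (diamonds) to the median of the other 9 libraries of the same multiplex, with the range of those 9 libraries as bars, for genes with at least 100 counts in both multiplexes. The 6 abundant messages and mt-Tt lie above the bars, mt-Td, mt-Tp and mt-Tw below, and mt-Nd6 within.

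Nuclear genes that act on mitochondrial RNA were followed as lists. Of 28 listed genes for mitochondrial RNA processing, tailing and decay, 27 were tested and 3 fell in each knockout, with 0 higher, beside list medians of -0.03 and -0.02. Over all genes tested, 12.3% were called in Ccnc KO and 4.31% in Cdk8 KO, so that nothing particular to the list is read from these counts. In Ccnc KO, Grsf1, an RNA granule protein, fell by 0.27 (SE 0.05, adjusted p = 0.00466), Elac2, the enzyme that trims tRNA 3′ ends, fell by 0.23 (SE 0.05, adjusted p = 0.00706), and Lrpprc, which stabilises mitochondrial mRNAs, fell by 0.16 (SE 0.05, adjusted p = 0.0455). Grsf1 was at 98.0 to 106 CPM in the 6 Ccnc KO libraries and at 116 to 128 CPM in the 3 WT libraries, and these did not overlap.

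In Cdk8 KO, Grsf1 fell by 0.30 (SE 0.06, adjusted p = 0.0168), Elac2 fell by 0.24 (SE 0.04, adjusted p = 0.0139) and Fastk, of the FASTK family of mitochondrial RNA-binding proteins, fell by 0.19 (SE 0.05, adjusted p = 0.0456). With clone as a block these 3 were lost, with adjusted p of 0.0618, 0.0505 and 0.188, as was Lrpprc in Ccnc KO at 0.0566. With ATRi edgeR called 0 genes of this list in the 2 multiplexes and within the clones of each knockout. In these tests 3 or 4 had an unadjusted p under 0.05, beside 1020 of 17162 to 3009 of 18577 genes.

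Of 20 listed genes for mtDNA transcription, replication and packaging, all 20 were tested. Primpol, a primase-polymerase, rose in Ccnc KO by 0.59 (SE 0.10, adjusted p = 0.00130) and in Cdk8 KO by 0.45 (SE 0.11, adjusted p = 0.0482), the latter lost with the block at an adjusted p of 0.113. Tfb2m, a factor for mitochondrial transcription initiation, rose with ATRi in the Ccnc multiplex by 0.53 (SE 0.11, adjusted p = 0.0316). It was at 3.83 to 4.67 CPM in DMSO and at 5.26 to 7.01 CPM under ATRi, without WT replicate 2 under ATRi, at 2.83 CPM.

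Of 77 listed nuclear-encoded subunits of complexes I to V, 76 were tested, and 4 rose and 1 fell in Ccnc KO, a smaller share than the 12.3% called over all genes, beside a list median of 0.07. The log2 difference was 0.85 for Atp5g1, 0.42 for Atpif1, 0.27 for Cox7b, 0.26 for Cox6b1 and -0.17 for Sdhc, and of these 5 only Atpif1 was still called with clone as a block (adjusted p = 0.0467). Atp5g1 was at 98.6, 113 and 42.6 CPM in D1, G2 and H5 in DMSO and at 41.6 and 43.0 CPM in WT, so that 2 of 3 clones were higher, and at 102 CPM in WT replicate 2 under ATRi. In Cdk8 KO, and with ATRi in the 2 multiplexes and within clones, edgeR called 0 of 76. In these tests 0 to 6 had an unadjusted p under 0.05, beside 1020 of 17162 to 3995 of 18721 genes.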

How the data were processed

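The libraries were poly(A)-selected, directional and single-end. Per the labels and the study's methods, the authors trimmed reads with Trimmomatic 0.38, aligned them to GRCm38.p6 with HISAT2 2.1.0 and deposited gene counts from featureCounts 2.0.1, counted by strand. The annotation came from Ensembl, and gene identifiers were matched here to GENCODE M21, in which all 55536 were found. The normalised tables deposited beside the counts were not used. Members were taken by symbol and the 2 lanes of a library were summed, which gave 30899823 to 67274049 counts. CPM is relative to the TMM-scaled total of the genes that passed the filter, and shares and percentages of counts to the library total.

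Counts were tested in edgeR 4.0.16 (R 4.3.3) with the quasi-likelihood test, TMM scaling and default filterByExpr, and adjusted by Benjamini-Hochberg over all genes tested (adjusted p under 0.05). WT replicate 2 under ATRi was left out. DESeq2 1.42.0, other scalings and filters, clone as a block and leaving out replicates were alternatives. The steps were tested on simulated data. A clone's libraries in both treatments come from the same cell line, which sets the pairing. Their deviations from group means correlated at 0.0204 to 0.184 for Ccnc KO and 0.176 to 0.625 for Cdk8 KO clones. Nuclear copies were annotated transcripts matching at 95% identity or more over 100 bases or more (BLAST 2.17.0). All members of the rRNA and protein-coding classes, tRNA genes that passed the filter and at most 4 called genes per nuclear list and comparison were named, and all 5 called complex subunits after their values were seen. The members and lists were chosen with earlier results of these data known.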

Additional observations from a re-analysis of the deposited data

Results flagged for a closer look

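In the Ccnc multiplex, both WT pairs were higher under ATRi and all 3 Ccnc KO pairs lower for 5 genes. The mean log2 change of the clones minus that of the WT replicates was -1.24 for mt-Co1, -1.36 for mt-Nd2, -1.22 for mt-Nd4, -1.03 for mt-Atp6 and -0.69 for mt-Co3. These means include WT replicate 2 under ATRi, and clone H5 moved by -0.01 for mt-Nd2 and by -0.10 for mt-Nd4. The 5 genes were picked by this difference of signs, which was not tested in itself. Its share over all genes was not computed. The interaction fitted without that library called 0 of 22 members. All 5 genes match a nuclear copy at least in part, and the counts of mt-Atp6 and mt-Co3 differed between lanes.

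In the Cdk8 multiplex, with clone as a block, the interaction of genotype and ATRi for mt-Rnr2 was -0.95.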

How the results depend on the processing

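Members called are given as counts. For genotype in the Ccnc multiplex the count was 1. It was 2 in DESeq2 and 5 with no filter beyond 1 count. It was 0 with clone as a replicate block, with WT replicate 2 under ATRi included (with and without the block), with a fold threshold of 2 and with DMSO libraries alone, and 0 to 0 on leaving out each replicate. For ATRi in the Ccnc multiplex the count was 1. It was 4 with no filter, 0 with WT replicate 2 under ATRi included (with and without the block), and 0 to 1 on leaving out each replicate. Within Ccnc KO clones it was 0, but 1 in DESeq2 and 9 with no filter, and for the interaction 0, but 7 with no filter. In the Cdk8 multiplex the counts were 0, but the replicate block gave 8 for ATRi, 2 within clones and 1 for the interaction. The block changed no other count of members called. Over all genes tested in the Ccnc multiplex, DESeq2 called 14.2% for genotype and 1.19% within clones. With no filter, 10.1% were called for genotype, 2.87% for ATRi, 1.62% within clones and 0.0678% (20 of 29492 genes) for the interaction. The cause of these differences was not tested. Including WT replicate 2 under ATRi turned the protein-coding share to -0.324 percentage points in Ccnc KO and -0.445 in Cdk8 KO. Some values of mt-Rnr1 and mt-Rnr2, none of them called, changed sign. For genotype in Ccnc KO, mt-Rnr1 was -0.16 with that library and -0.14 with the block too. For genotype in Cdk8 KO it was -0.18 with that library, -0.17 with the block too, and -0.11 (without C8) to 0.14 on leaving out each replicate, with -0.02 without WT replicate 1. On leaving out each replicate it ran from -0.11 (without WT replicate 1) to 0.21 for ATRi in the Ccnc multiplex and from -0.29 to 0.0572 (without D1) within Ccnc KO clones, and mt-Rnr2 from -0.0512 (without WT replicate 1) to 0.46 for genotype in Ccnc KO. The interactions could not be fitted without WT replicate 1. Settings with nuclear copies added, with DMSO libraries without D1, and the block together with WT replicate 2 under ATRi, were chosen after seeing the data. 5 tRNA genes held 0 counts, and the part of depth and of unannotated nuclear copies in this was not tested.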
